A study of Mus musculus with 24 samples.

Results

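The solute carrier genes expressed in mouse embryonic fibroblasts were followed across 8 groups of libraries. The gene table held 377 rows whose symbol began with Slc and a number. Of these, 201 were chosen by their mean raw level, at least 1 CPM (a gene's counts scaled to the library total) over the 24 libraries, 175 fell below that level and 1, Slc30a1, was left out by name. No difference between groups was used in the choice. The lowest genes inside the limit were Slc17a8 (1.0 CPM) and Slc6a2 (1.04 CPM), and the nearest outside it were Slc39a4 (0.951 CPM) and Slc15a2 (0.949 CPM). In 11 of the 201 at least 1 group had a mean under 1 CPM, so these could enter through the groups in which they were high.

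Solute carriers are membrane proteins that move small molecules and ions across the plasma membrane or the membranes of organelles, by facilitated diffusion or coupled to the gradient of another ion. Family numbers follow sequence similarity and broadly the substrate: SLC7 members carry amino acids, many of them as exchangers bound to a partner glycoprotein of the SLC3 family, SLC2 members carry sugars, SLC39 and SLC30 members carry zinc in opposite directions, and most SLC25 members sit in the inner mitochondrial membrane. In fibroblasts they bring in the amino acids, glucose, vitamins and metals used for growth and for the synthesis of matrix proteins. Several amino acid carriers are known targets of ATF4, the transcription factor of the amino acid response. Glucocorticoids act through a nuclear receptor that binds DNA and regulates transcription.

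All libraries came from wild-type mouse embryonic fibroblasts, a mixed primary culture that grows out of embryo tissue. The cells received siCTRL, taken here as a control siRNA, or siCop1, taken as an siRNA against Cop1, a ubiquitin ligase listed in the gene table as Rfwd2. They also received the solvent DMSO or KL001, a small molecule known to stabilise cryptochromes, the repressors of the circadian clock, each without or with Dexa, written as in the labels. The 8 groups of 3 libraries are therefore siCTRL DMSO, siCTRL DMSO with Dexa, siCTRL KL001, siCTRL KL001 with Dexa, siCop1 DMSO, siCop1 DMSO with Dexa, siCop1 KL001 and siCop1 KL001 with Dexa. The sources used here give no doses or times, and nothing says whether the 3 libraries of a group came from separate cultures, so p-values measure the spread between these libraries, which may be technical.

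Library totals ran from 21409988 to 27875023 counts. Rfwd2 was at 4.33 to 5.79 CPM in the 12 siCop1 libraries and at 25.0 to 29.7 CPM in the 12 siCTRL libraries. The fibroblast markers Col1a1 (14650 to 23500 CPM) and Vim (4448 to 5013 CPM) were high throughout. Markers of other cell types were present at low levels: 8 heart muscle genes summed to 1.94 to 95.96 CPM in siCTRL libraries and 1.21 to 3.54 CPM in siCop1 libraries, and 6 squamous epithelium genes reached 85.4 CPM in 1 library of siCop1 DMSO with Dexa. Sums of 6 macrophage genes reached 15.1 CPM, in siCop1 KL001 with Dexa, and sums of 5 neural genes, nearly all of it Map2, were 225.7 to 288.6 CPM without Dexa and 344.7 to 441.6 CPM with Dexa. The part of these cells in the results was not tested. In bulk RNA, fewer cells of a type and less RNA per cell cannot be told apart.

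The 201 genes took 1.31 to 1.43% of all counts in a library. Their mean raw levels spread widely, with 13 genes under 2 CPM, 36 between 2 and 10, 111 between 10 and 100 and 41 at 100 or more. Per kilobase of exon, Slc25a4, the adenine nucleotide carrier of the inner mitochondrial membrane, was highest with a mean of 249.0 CPM per kb (227.5 to 288.6 over the libraries). Slc7a5, the large neutral amino acid exchanger LAT1, followed with 153.5 CPM per kb (101.7 to 212.2), ahead of its partner chain Slc3a2 with 129.1 CPM per kb. Slc25a3, the mitochondrial phosphate carrier, had 97.9, Slc38a2, a sodium-coupled neutral amino acid transporter, 85.0, and Slc29a1, the equilibrative nucleoside transporter ENT1, 76.7 CPM per kb. Slc25a5, a second adenine nucleotide carrier, had 50.4 CPM per kb, a level that is uncertain because the gene has many near-identical copies in the genome. The ranges of Slc7a5 and Slc3a2 overlap, and their order is that of the means only.

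Genes were tested with edgeR's quasi-likelihood test on all 24 libraries, and a gene is called changed where its Benjamini-Hochberg adjusted p over the 14772 genes tested was under 0.05, two-sided. With Dexa, 89 of the 201 carriers (44.3%) changed in siCTRL DMSO, 44 higher and 45 lower, where 26.8% of all genes tested changed. In the other Dexa settings 77 changed in siCTRL KL001 (38.3% against 26.8%), 78 in siCop1 DMSO (38.8% against 23.7%) and 71 in siCop1 KL001 (35.3% against 24.5%). With siCop1, 89 changed in DMSO without Dexa (44.3% against 29.4% of all genes), 40 higher and 49 lower. The corresponding numbers were 86 in DMSO with Dexa (42.8% against 31.1%), 89 in KL001 without Dexa (44.3% against 32.7%) and 80 in KL001 with Dexa (39.8% against 30.1%). KL001 changed fewer carriers: 28 in siCTRL without Dexa (13.9% against 6.73%), 30 in siCTRL with Dexa (14.9% against 10.6%), 16 in siCop1 without Dexa (7.96% against 4.09%) and 19 in siCop1 with Dexa (9.45% against 5.46%). Carriers were by choice not rare transcripts, and among all tested genes of at least 1 CPM the shares called were also higher. They were 30.3, 30.2, 26.5 and 27.7% for Dexa, 33.4, 35.3, 37.1 and 34.3% for siCop1, and 7.78, 12.3, 4.8 and 6.37% for KL001, in the order just given. Fitted on the 2 groups compared alone, the KL001 count in siCTRL without Dexa was 1. That count was 15 without siCTRL DMSO replicate 2 and 18 without replicate 3. The count for KL001 in siCTRL with Dexa was 20 without siCTRL DMSO with Dexa replicate 1. In siCop1 with Dexa the count for KL001 fell to 10 without siCop1 DMSO with Dexa replicate 1, to 10 without KL001 with Dexa replicate 3 and to 12 without replicate 2 of that group. The median log2 change of the 201 genes was close to 0 in these comparisons, for example -0.004 for Dexa in siCTRL DMSO and -0.04 for siCop1 in DMSO without Dexa.

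**Figure D1:**
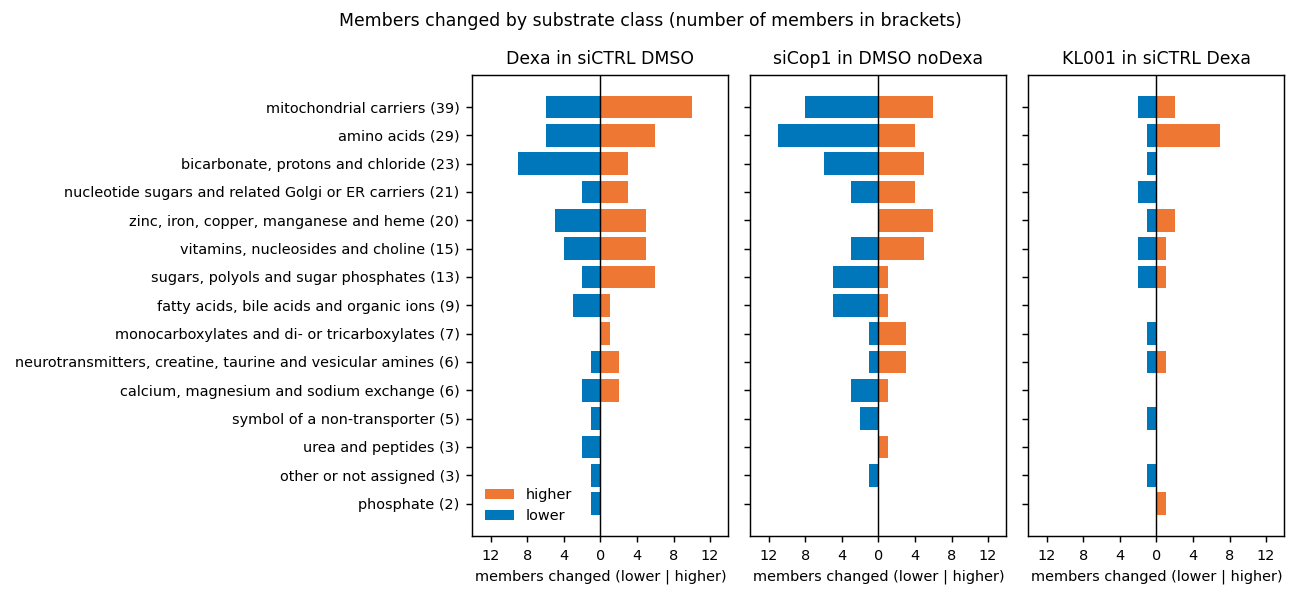
Number of carriers called lower (left of 0) and higher (right of 0) in each substrate class for Dexa in siCTRL DMSO, siCop1 in DMSO without Dexa and KL001 in siCTRL with Dexa; the class size is given beside its name. Amino acid carriers fell more often than they rose with siCop1 (11 lower, 4 higher of 29) and the reverse held with KL001 (1 lower, 7 higher).

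The 4 settings of each treatment share no library with one another. With Dexa, 29 carriers rose and 23 fell in all 4, together 25.9% of the carriers against 15.2% of all genes tested. With siCop1, 24 rose and 29 fell in all 4 (26.4% against 16.3%), and with KL001 4 rose and 1 fell (2.49% against 1.8%). Among tested genes of at least 1 CPM the shares were 17.4% for Dexa, 19.1% for siCop1 and 2.13% for KL001, the last near that of the carriers. Of the carriers called in all 4 settings, 23 and 17 with Dexa, 18 and 22 with siCop1, and 1 and 0 with KL001 kept every call when any 1 library was left out. Both sets of numbers include Slc10a6, Slc17a8 and Slc39a8 with Dexa and Slc14a1 with siCop1, as do the counts per comparison above. These genes were under 1 CPM in most or all groups without that treatment. Their calls follow in part from the level limit and are no support for a difference. The numbers called in all 4 settings also include Slc6a2 and Slc26a7 with siCop1 and Slc14a2 with Dexa. Mean raw levels of these were close to the limit, at 1.037, 1.217 and 1.247 CPM. The limit may have favoured their calls too, and they are not taken as support. The same may hold for any of the 11 carriers with a group mean under 1 CPM. No change passed the threshold in any of the 12 comparisons for 42 carriers, and 1, Slc6a9, passed it in all 12. Members named here for being called in all 4 settings were chosen after their values were seen.

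With siCop1, amino acid carriers fell more often than they rose. Of 29 amino acid carriers, 8 fell in all 4 siCop1 settings: the neutral amino acid exchanger Slc7a5 and its heavy chain Slc3a2, the glutamine and neutral amino acid exchanger Slc1a5, the glycine transporter Slc6a9, the cationic amino acid transporters Slc7a1 and Slc7a2, and the glutamate transporters Slc1a3 and Slc1a6. Only Slc7a6, which exchanges cationic for neutral amino acids, and Slc16a10, a carrier of aromatic amino acids, rose in all 4. Of the 14772 genes tested, 1410 fell and 997 rose in all 4 siCop1 settings, and of the 201 carriers 29 fell and 24 rose. In DMSO without Dexa, 11 of the 29 were lower and 4 higher, with a class median of -0.13, where 16.6% of all genes were lower and 12.8% higher.

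Slc7a5 was at 689.5, 729.8 and 709 CPM in siCTRL DMSO and at 402, 382 and 395 CPM in siCop1 DMSO. In KL001 with Dexa it was at 769, 745 and 787 CPM with siCTRL and at 424, 420.4 and 417 CPM with siCop1. These levels by library are CPM on edgeR's TMM scale. Every siCop1 library of the 12 was below every siCTRL library. The siCop1 settings are given from here on in the order DMSO, DMSO with Dexa, KL001 and KL001 with Dexa, and the log2 differences of Slc7a5 were -0.85 (SE 0.032, adjusted p = 2.35e-18, edgeR), -0.86, -0.88 and -0.87.

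Slc3a2, without which Slc7a5 does not reach the cell surface, was at 529, 524 and 496.5 CPM in siCTRL DMSO and at 347, 340.3 and 338.5 CPM in siCop1 DMSO. The 2 groups did not overlap, nor did the siCTRL and siCop1 groups of the other 3 settings. Its log2 difference was -0.60 (SE 0.029, adjusted p = 6.84e-16, edgeR), and -0.63, -0.60 and -0.59 in the other settings. Slc1a5 was at 197, 199.5 and 196 CPM in siCTRL DMSO and at 121, 124 and 113 CPM in siCop1 DMSO, a log2 difference of -0.73 (adjusted p = 2.03e-15, edgeR). Slc6a9 fell from 203 ± 8.47 to 136 ± 2.92 CPM (SD, n = 3), a log2 difference of -0.58, and by -0.61, -0.58 and -0.61 in the other 3 settings. Slc7a1, the main entry route for arginine and lysine in many cells, fell less, by -0.29, -0.35, -0.23 and -0.27 in the 4 settings.

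The glutamate transporter Slc1a3 was at 303.5, 319 and 318 CPM in siCTRL DMSO and at 235, 243 and 241 CPM in siCop1 DMSO. With Dexa the gap was narrower, 212, 215 and 217 CPM against 195, 198 and 195 CPM, and the groups still did not overlap. The log2 differences with siCop1 were -0.39, -0.13, -0.54 and -0.33 in the same order.

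The cystine and glutamate exchanger Slc7a11 did not follow these carriers. With siCop1 it did not pass the threshold without Dexa (log2 -0.15 in DMSO, adjusted p = 0.151, and -0.02 in KL001, adjusted p = 0.887, edgeR). With Dexa its siCop1 difference was -0.24 in both DMSO and KL001, and each of these calls was lost on leaving out 1 of several libraries, with adjusted p of up to 0.122 without siCTRL DMSO with Dexa replicate 3 and 0.102 without siCTRL KL001 with Dexa replicate 1. With KL001 it rose in all 4 settings. Its libraries were at 29.6, 35.6 and 36.6 CPM in siCTRL DMSO with Dexa and at 50.5, 46.3 and 45.9 CPM in siCTRL KL001 with Dexa. In siCop1 the values were 40.1, 39.1 and 39.1 CPM in DMSO and 53.3, 56.6 and 50.1 CPM in KL001. These pairs of groups did not overlap. The log2 differences with KL001 were 0.49 in siCTRL with Dexa (adjusted p = 0.000176, edgeR), 0.43 in siCop1 and 0.49 in siCop1 with Dexa. Without Dexa, the siCTRL difference was 0.30 (adjusted p = 0.0129), and this call was lost without siCTRL DMSO replicate 1 (0.23, adjusted p = 0.0769), without siCTRL KL001 replicate 1 (0.24, 0.0631) and without siCTRL KL001 replicate 3 (0.28, 0.0569).

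**Figure D2:**
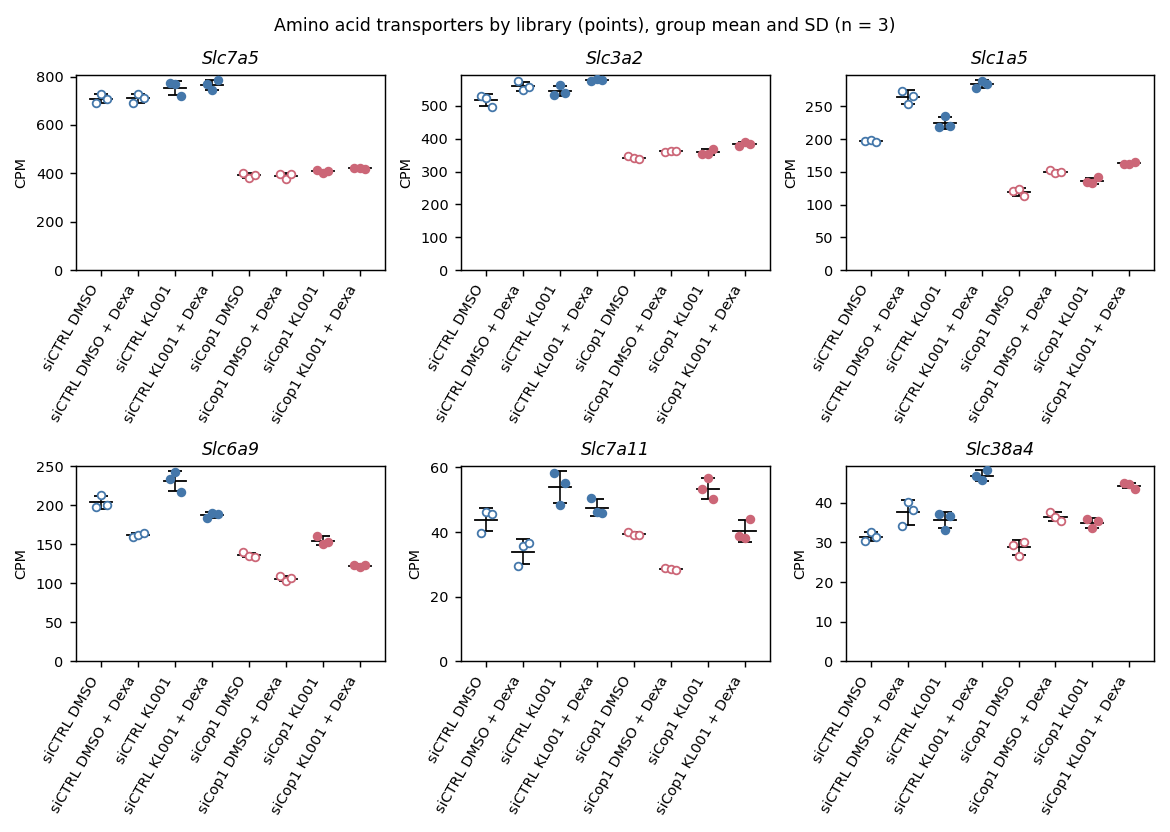
TMM-scaled CPM (linear axis from 0) of 6 amino acid carriers in each of the 24 libraries, by group; blue is siCTRL, red siCop1, open points DMSO, filled points KL001, lines the group mean and bars the SD (n = 3). Slc7a5, Slc3a2, Slc1a5 and Slc6a9 sit lower in all siCop1 groups than in the matching siCTRL groups, and Slc7a11 and Slc38a4 sit higher with KL001.

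KL001 raised 7 and lowered 1 of the 29 amino acid carriers in siCTRL with Dexa, where 4.98% of all genes were higher and 5.58% lower. Slc6a9 rose in all 4 settings. It was at 159, 162 and 164 CPM in siCTRL DMSO with Dexa and at 183, 189.7 and 189 CPM in siCTRL KL001 with Dexa, without overlap. In siCop1 with Dexa it went from 109, 103 and 106 CPM to 124, 121 and 123 CPM. The log2 differences were 0.18 (adjusted p = 0.00194), 0.21 (adjusted p = 0.000276), 0.18 and 0.21 (edgeR) in siCTRL, siCTRL with Dexa, siCop1 and siCop1 with Dexa, the order kept below for KL001. Fitted on the 2 groups compared alone, the first of these was no longer called (adjusted p = 0.12).

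Slc38a4, a sodium-coupled neutral amino acid transporter, also rose with KL001 in all 4 settings, with log2 differences of 0.18, 0.32, 0.28 and 0.28. In siCTRL with Dexa it went from 34.2, 40.3 and 38.1 CPM to 46.6, 45.7 and 48.2 CPM, without overlap (adjusted p = 0.000137, edgeR). The call in siCTRL without Dexa (adjusted p = 0.0434) was lost without siCTRL DMSO replicate 1 (0.16, 0.143), 2 (0.21, 0.0558) or 3 (0.18, 0.11), and without siCTRL KL001 replicate 1 (0.15, 0.133) or 3 (0.16, 0.147). Slc7a1 rose with KL001 in the settings with Dexa, by 0.28 in siCTRL (adjusted p = 0.00266) and 0.37 in siCop1 (adjusted p = 0.000337), and did not pass without Dexa (0.13 and 0.19).

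Promoters are shown for 2 amino acid carriers described here that held the letters TGATGNAA, the core of the amino acid response element, to which ATF4 with a C/EBP partner is known to bind. RefSeq promoters (GRCm38.p6, from 250 bases before to 50 bases after the start) matched 152 of the 201 genes with 206 promoters, and Slc7a5 and Slc1a5 were not among them. The letters were searched on both strands, together with ACANNNTGT (glucocorticoid response element core), CACGTG (E-box) and TGANTCA (AP-1 site). Among these promoters, matches of different motifs overlapped in 1, an E-box with an AP-1 site. From 200 bases before to 20 bases after the start, with the matches in capitals, the sequences on the minus strand at chr3:50443594-50443813 (Slc7a11) and chr11:20332694-20332913 (Slc1a4, a neutral amino acid exchanger named after its match was seen) read:

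Slc7a11: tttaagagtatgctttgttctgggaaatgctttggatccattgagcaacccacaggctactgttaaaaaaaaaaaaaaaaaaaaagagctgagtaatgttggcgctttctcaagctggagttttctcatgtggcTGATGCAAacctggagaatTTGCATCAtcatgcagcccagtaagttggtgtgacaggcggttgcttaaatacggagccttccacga
Slc1a4: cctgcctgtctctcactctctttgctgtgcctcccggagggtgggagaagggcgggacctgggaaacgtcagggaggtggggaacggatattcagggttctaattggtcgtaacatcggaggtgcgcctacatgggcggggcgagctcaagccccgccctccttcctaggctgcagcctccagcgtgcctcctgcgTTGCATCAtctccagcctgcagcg

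Slc7a11 held TGATGCAA starting 66 bases before the start and TTGCATCA, the same letters on the other strand, 47 bases before it. Slc1a4 held TTGCATCA starting 4 bases before the start. The other matches in the class were in overlapping promoters of Slc7a7, so the promoters counted next are not all of separate genes. No promoter given for Slc3a2, Slc6a9, Slc7a1, Slc1a3 or Slc1a6, which fell with siCop1, held the letters. TGATGNAA was in 4 of 35 promoters of amino acid carriers (11.4%), in 7 of the 206 carrier promoters (3.4%) and in 3.97% of the 32851 mouse promoters. It was not alone in this: TGANTCA was in 6 of the 35 (17.1% against 7.81% of mouse promoters) and CACGTG in 4 (11.4% against 7.15%). ACANNNTGT was in 2 of the 35 (5.71% against 6.85%). A match is a description of letters, and no match says only that they are not in this window. Slc1a4 was at 166, 163.5 and 166 CPM in siCTRL DMSO and at 144, 144 and 143 CPM in siCop1 DMSO, and the log2 differences with siCop1 were -0.20, -0.12, -0.21 and -0.06, the last of which did not pass the threshold.

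A list of 12 amino acid response genes other than carriers was read beside them. This list includes Atf4, Asns and Trib3, and it was chosen with earlier results of these data known. With siCop1 all 12 fell in each of the 4 settings, where 16.6, 16.7, 18.2 and 16.3% of all genes tested fell. The medians of the 12 were -0.49, -0.50, -0.45 and -0.39. Trib3, a pseudokinase induced by ATF4, had log2 differences of -0.83, -0.84, -0.74 and -0.70, and Asns, asparagine synthetase, of -0.48, -0.56, -0.49 and -0.55. With KL001, 9, 10, 8 and 11 of the 12 rose, where 3.22, 4.98, 1.77 and 2.5% of all genes tested rose. None of the 12 fell, and their medians were 0.13, 0.16, 0.16 and 0.21. In siCTRL without Dexa, 5 to 8 rose when 1 library was left out, and 1 in the fit on the 2 groups alone. Psat1, an enzyme of serine synthesis, rose with KL001 by 0.20, 0.25, 0.19 and 0.27. Dexa gave no common direction, with 2 higher and 3 lower of the 12 in siCTRL DMSO, where 12.7% of all genes were higher and 14.1% lower.

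The siCop1 difference in DMSO without Dexa and the KL001 difference in siCop1 with Dexa use no library in common. There were 14 carriers called in both, 15.7% of the 89 called with siCop1 and 73.7% of the 19 called with KL001. Among all genes tested, 512 were called in both, 11.8% and 63.4% of the respective calls. Of the 14 carriers, 8 were lower with siCop1 and higher with KL001, 5 the reverse and 1 lower in both, and of the 512 genes 243 moved in opposite directions. The amino acid carriers Slc7a5, Slc1a5, Slc6a9, Slc7a1 and Slc1a4 were lower with siCop1 and higher with KL001, and the 1 carrier lower in both, Slc1a3, is also an amino acid carrier. The KL001 calls of Slc7a5 (0.11, adjusted p = 0.0458) and Slc1a5 (0.12, adjusted p = 0.0492) in this setting were lost when any of its 6 libraries was left out, with an adjusted p of up to 0.246 for Slc7a5, without siCop1 DMSO with Dexa replicate 2, and up to 0.191 for Slc1a5, without siCop1 KL001 with Dexa replicate 3. Of the other pairs without a shared library, siCop1 in DMSO with Dexa and KL001 in siCTRL gave 16 carriers called in both, 11 of them in opposite directions (266 of 562 for all genes). For siCop1 in DMSO and KL001 in siCTRL with Dexa it was 10 of 16 (337 of 841), and for siCop1 in DMSO with Dexa and KL001 in siCop1 it was 7 of 11 (187 of 398).

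**Figure D3:**
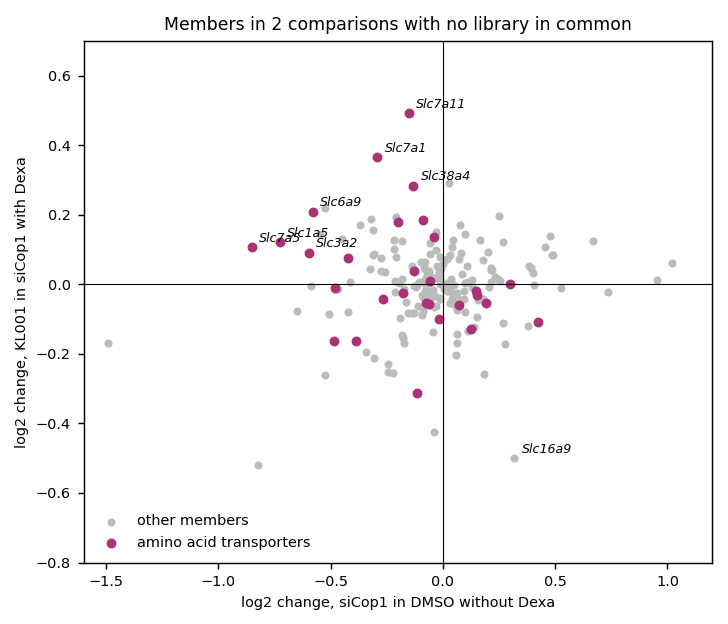
Log2 difference of each carrier with siCop1 in DMSO without Dexa (x) against its log2 difference with KL001 in siCop1 with Dexa (y), which share no library; amino acid carriers are coloured and 1 gene, Slc14a1, lies outside the axes. Slc7a5, Slc1a5, Slc6a9 and Slc7a1 lie left of 0 on x and above 0 on y.

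Some carriers were nearly silent without Dexa. Slc10a6 and Slc17a8 were under 1 CPM in every group without Dexa and reached the level limit only through the groups with it, and Slc39a8 was under 1 CPM in 3 of the 4 groups without it, so their differences with Dexa are given as a description, with no test. Slc10a6, a transporter of sulfated steroids, was at 0.289, 0.295 and 0.318 CPM in siCTRL DMSO and at 2.53, 2.94 and 2.43 CPM with Dexa. In siCop1 KL001 it was at 0.039, 0.0386 and 0.0747 CPM and with Dexa at 1.77, 1.78 and 1.81 CPM. The groups without and with Dexa did not overlap in any setting. Without Dexa the gene had 23, 13, 8 and 4 counts over the 3 libraries of siCTRL DMSO, siCTRL KL001, siCop1 DMSO and siCop1 KL001, and the ratio with Dexa was 8.7 (95% exact interval 5.63 to 14.1, counting error only), 14.1 (8.03 to 27.0), 19.4 (9.58 to 45.6) and 34.6 (13.2 to 129.0).

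Slc39a8, the zinc and manganese importer ZIP8, was at 0.325, 0.379 and 0.596 CPM in siCTRL DMSO and at 3.50, 3.42 and 3.03 CPM with Dexa (log2 2.93). In siCop1 DMSO it was at 0.596, 1.32 and 0.725 CPM and with Dexa at 3.16, 2.82 and 2.59 CPM. The log2 change with Dexa was 2.64 in siCTRL KL001, 1.69 in siCop1 DMSO and 1.49 in siCop1 KL001. The change with Dexa differed between siCop1 and siCTRL in DMSO by -1.24, which is given as a description only, and nothing is concluded from it. The 3 siCop1 DMSO libraries without Dexa had 16, 34 and 18 counts of the gene. Slc17a8, a vesicular glutamate transporter, was at 0.277 ± 0.0898 CPM in siCTRL DMSO and at 1.33 ± 0.0885 CPM with Dexa (SD, n = 3), with log2 differences of 2.26, 2.05, 1.89 and 2.07 in siCTRL DMSO, siCTRL KL001, siCop1 DMSO and siCop1 KL001, the order used below for Dexa. Slc45a3, a putative sugar carrier first described in prostate, was at 3.43, 3.49 and 3.22 CPM in siCTRL DMSO and at 11.8, 11.6 and 12.6 CPM with Dexa, with log2 changes of 1.83, 2.0, 1.30 and 1.60.

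Slc10a6 and Slc17a8 had the letters ACANNNTGT, the core of the glucocorticoid response element, in a RefSeq promoter, and are shown for that match. The promoters given for Slc39a8, Slc45a3, Slc23a2 and Slc4a4 held none. On the minus strand at chr5:103629384-103629603 (Slc10a6) and chr10:89621230-89621449 (Slc17a8), from 200 bases before to 20 bases after the start, with the match in capitals, they read:

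Slc10a6: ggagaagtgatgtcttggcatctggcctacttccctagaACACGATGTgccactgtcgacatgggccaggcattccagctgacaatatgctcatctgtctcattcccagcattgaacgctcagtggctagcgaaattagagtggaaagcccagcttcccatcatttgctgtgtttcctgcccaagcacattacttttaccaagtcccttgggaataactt
Slc17a8: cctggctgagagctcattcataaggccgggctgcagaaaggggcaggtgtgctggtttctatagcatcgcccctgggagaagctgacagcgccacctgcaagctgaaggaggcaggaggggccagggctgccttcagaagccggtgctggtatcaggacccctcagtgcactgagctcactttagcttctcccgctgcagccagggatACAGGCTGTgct

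The match began 161 bases before the start in Slc10a6 and 8 bases after it in Slc17a8, and a further Slc17a8 promoter held none. ACANNNTGT was in 8 of the 206 carrier promoters (3.88%) and in 6.85% of all promoters. TGANTCA was in 12 carrier promoters (5.83% against 7.81%) and CACGTG in 28 (13.6% against 7.15%). The other carrier promoters with ACANNNTGT were of Slc2a10, Slc3a1, Slc6a17, Slc25a4, Slc25a24 and Slc30a5. With Dexa, Slc25a24 was called lower in 4 settings, Slc2a10 lower in 1 and Slc30a5 higher in 3. Slc3a1, Slc6a17 and Slc25a4 were called with Dexa in none, so the match did not go with 1 direction.

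Among well expressed carriers, Slc23a2, the ascorbate transporter SVCT2, had the smallest adjusted p with Dexa of those named. It was at 64.2, 65.2 and 65.9 CPM in siCTRL DMSO and at 157, 162 and 157 CPM with Dexa, while in siCop1 DMSO it was at 78.8 ± 3.16 CPM without and 186 ± 6.35 CPM with Dexa (SD, n = 3). The groups did not overlap. The log2 changes were 1.29 (SE 0.049, adjusted p = 7.4e-19, edgeR), 1.11, 1.24 and 1.09. Slc12a2, the sodium, potassium and chloride cotransporter NKCC1, rose from 92.1, 100.2 and 103 CPM to 180.3, 201 and 208 CPM in siCTRL DMSO and from 70.5, 69.9 and 73.1 CPM to 120.6, 123 and 120.0 CPM in siCop1 DMSO. Its log2 changes with Dexa were 1.0, 1.02, 0.77 and 0.82, and with siCop1 it fell in all 4 settings by -0.47, -0.70, -0.33 and -0.52.

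The largest decrease with Dexa that was found in all 4 settings was in Slc5a7, the high-affinity choline transporter, which went from 18.8, 19.8 and 20.1 CPM to 7.78, 8.51 and 7.77 CPM in siCTRL DMSO. The groups did not overlap in any setting, and the log2 changes were -1.29 (adjusted p = 1.22e-13, edgeR), -1.14, -0.92 and -0.95.

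**Figure D4:**
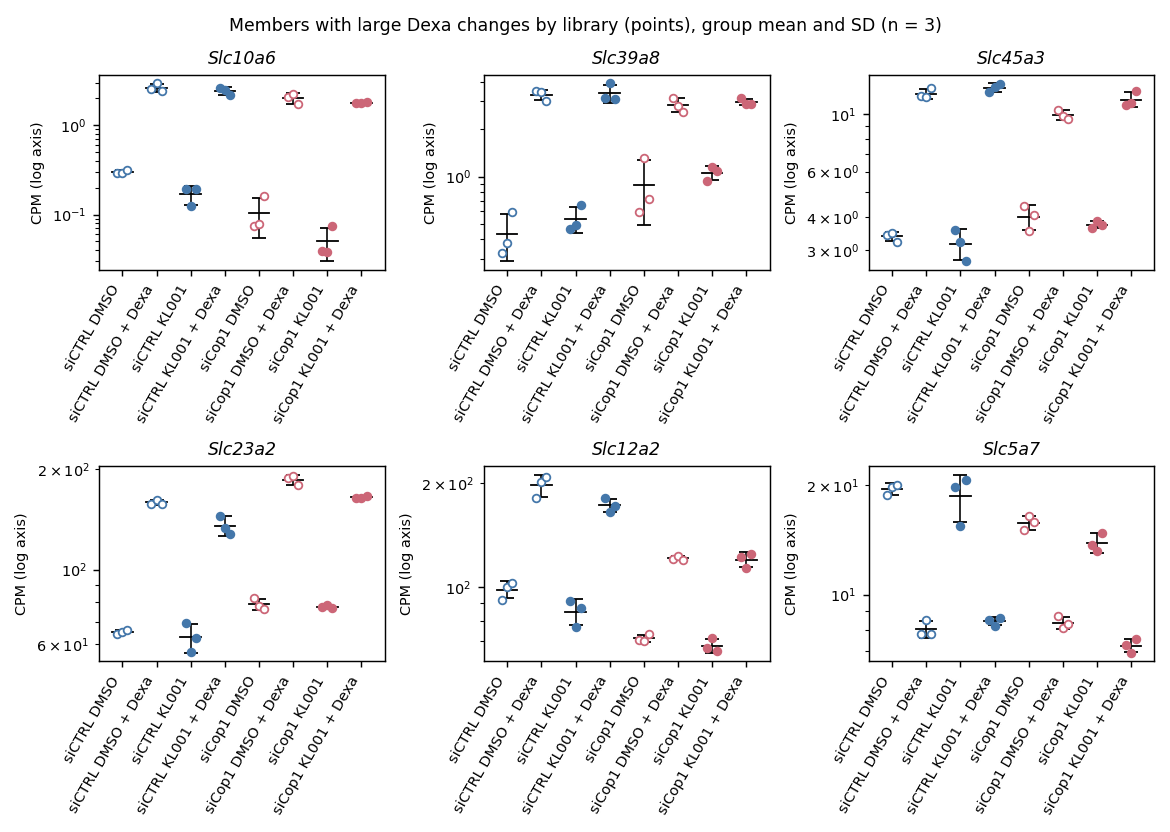
TMM-scaled CPM (log axis) in each of the 24 libraries for 6 carriers with large Dexa differences; colours and symbols as blue siCTRL, red siCop1, open DMSO, filled KL001, lines the group mean and bars the SD (n = 3). Slc10a6, Slc39a8, Slc45a3, Slc23a2 and Slc12a2 are higher with Dexa in every setting, and Slc5a7 is lower.

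Sugar and polyol carriers rose with Dexa more often than they fell. Of 13, 6 were higher and 2 lower in siCTRL DMSO, where 12.7% of all genes were higher and 14.1% lower. In all 4 settings 5 were higher: Slc45a3, the glucose transporter Slc2a1, the proton-coupled inositol transporter Slc2a13, the endoplasmic reticulum glucose 6-phosphate carrier Slc37a4 and Slc45a4. Of the 14772 genes tested, 1160 were higher in all 4 Dexa settings, and of the 201 carriers 29. Slc2a1 was at 107, 111 and 108 CPM in siCTRL DMSO and at 145, 147 and 149 CPM with Dexa, and the log2 changes were 0.44 (adjusted p = 2.33e-11, edgeR), 0.46, 0.28 and 0.33. Slc2a13 changed by 0.62, 0.67, 0.60 and 0.63 and Slc45a4 by 0.22, 0.28, 0.27 and 0.31. With siCop1, Slc45a4 fell in all 4 settings (-0.31, -0.26, -0.27 and -0.24), as did the sodium-coupled inositol transporter Slc5a3 (-0.37, -0.56, -0.32 and -0.43).

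In the class of monocarboxylate and dicarboxylate carriers, Slc16a9, a plasma membrane member of the monocarboxylate family, was the only carrier of the 201 that fell with KL001 in all 4 settings. It was at 5.05, 4.38 and 4.61 CPM in siCTRL DMSO and at 3.03, 3.13 and 3.56 CPM in siCTRL KL001, and at 5.66, 5.83 and 6.05 CPM against 4.17, 4.13 and 4.07 CPM in siCop1. The log2 differences were -0.53 (adjusted p = 0.000938, edgeR), -0.44, -0.50 and -0.50. The call in siCTRL with Dexa (adjusted p = 0.0118) was lost without siCTRL DMSO with Dexa replicate 1 (-0.39, 0.091). Slc16a6, a ketone body carrier, rose with Dexa by 0.54, 0.53, 0.54 and 0.54. The lactate transporter Slc16a1 had group means of 51.6 to 61.9 CPM. Its log2 differences with siCop1 were -0.06, -0.11, -0.10 and -0.19, of which the last 3 passed the threshold. The calls in DMSO with Dexa and in KL001 were lost on leaving out 1 of several libraries, with an adjusted p of up to 0.105 without siCTRL DMSO with Dexa replicate 2 and up to 0.1 without siCop1 KL001 replicate 1.

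Of 23 carriers of bicarbonate, protons and chloride, 3 were higher and 9 lower with Dexa in siCTRL DMSO, where 12.7% of all genes were higher and 14.1% lower. The numbers were 3 and 9 in siCTRL KL001, 4 and 7 in siCop1 DMSO and 3 and 3 in siCop1 KL001. The sodium bicarbonate cotransporter Slc4a4 and its relative Slc4a7 moved in opposite directions with Dexa and both rose with siCop1. Slc4a4 was at 5.84, 6.36 and 6.44 CPM in siCTRL DMSO and at 14.1, 15.4 and 15.6 CPM with Dexa, with log2 changes of 1.27, 1.31, 0.85 and 0.75. Slc4a7 went from 64.4, 67.8 and 70.2 CPM to 44.9, 51.4 and 51.2 CPM, with log2 changes of -0.46, -0.38, -0.49 and -0.48. With siCop1 Slc4a4 rose by 0.74, 0.31, 0.99 and 0.44 and Slc4a7 by 0.48, 0.45, 0.57 and 0.47.

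Among the 6 carriers of calcium, magnesium and sodium exchange, Slc24a3, a potassium-dependent sodium and calcium exchanger, fell with both siCop1 and Dexa. It was at 155, 162 and 157 CPM in siCTRL DMSO, at 109, 106 and 109 CPM in siCop1 DMSO and at 86.5, 93.5 and 89.6 CPM in siCop1 DMSO with Dexa, with no overlap between these groups. The log2 differences with siCop1 were -0.55 (adjusted p = 5.03e-13, edgeR), -0.65, -0.53 and -0.60, and those with Dexa -0.17, -0.22, -0.26 and -0.29. Slc41a1, a magnesium transporter, rose with siCop1 by 0.39, 0.40, 0.36 and 0.45.

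Of 20 carriers of zinc, iron, copper, manganese and heme, 6 were higher and 0 lower with siCop1 in DMSO, where 12.8% of all genes were higher and 16.6% lower. In DMSO with Dexa 4 were higher and 3 lower, in KL001 5 and 0, and in KL001 with Dexa 2 and 1. Slc30a4, which moves zinc out of the cytosol into vesicles, and Slc39a10, a zinc importer of the plasma membrane, rose in all 4 siCop1 settings. Slc30a4 was at 280.0, 298 and 318 CPM in siCTRL DMSO and at 401, 400.2 and 426 CPM in siCop1 DMSO, without overlap, and the log2 differences were 0.45, 0.52, 0.47 and 0.50 (adjusted p = 1.14e-06 in the first, edgeR). Slc39a10 was at 34.3, 37.9 and 40.6 CPM against 52.0, 54.7 and 51.6 CPM, with log2 differences of 0.49, 0.45, 0.48 and 0.47.

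With Dexa, Slc39a14, the zinc, iron and manganese importer ZIP14, rose from 112, 118 and 117 CPM to 172, 189 and 186 CPM in siCTRL DMSO. Its log2 changes were 0.66 (adjusted p = 6.86e-14, edgeR), 0.79, 0.57 and 0.63. Slc30a4 (-0.36, -0.25, -0.30 and -0.22), the zinc importer Slc39a1 (-0.20, -0.21, -0.21 and -0.14) and the heme carrier Slc48a1 (-0.15, -0.17, -0.18 and -0.18) fell with Dexa, as did the zinc importer Slc39a6. Slc39a8 rose with siCop1 without Dexa in KL001 (0.97, adjusted p = 0.0047). Its call in DMSO (1.02, adjusted p = 0.00611) was lost without siCop1 DMSO replicate 2 (0.61, 0.21). The divalent metal transporter Slc11a2 and the copper importer Slc31a1 passed the threshold in none of the 12 comparisons.

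Of 15 carriers of vitamins, nucleosides and choline, 5 were higher and 4 lower with Dexa in siCTRL DMSO (12.7 and 14.1% of all genes). Beside Slc23a2, the thiamine transporter Slc19a2 rose with Dexa by 0.69, 0.65, 0.51 and 0.48 and fell with siCop1 by -0.42, -0.59, -0.62 and -0.78. It was at 16.2, 16.1 and 15.9 CPM in siCTRL DMSO and at 11.6, 11.2 and 13.4 CPM in siCop1 DMSO, without overlap. Slc29a1 and Slc29a2, the equilibrative nucleoside transporters, rose with siCop1 in all 4 settings. Slc29a1 went from 271, 262 and 262 CPM to 321, 316 and 320.1 CPM (log2 0.27, 0.36, 0.23 and 0.35), and Slc29a2 from 6.85, 7.33 and 6.95 CPM to 10.2, 9.76 and 10.5 CPM (log2 0.53, 0.64, 0.51 and 0.53). The choline-transporter-like genes Slc44a1 (-0.23, -0.18, -0.33 and -0.27) and Slc44a2 (-0.17, -0.15, -0.10 and -0.10) fell with Dexa.

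The 39 members of the SLC25 family, grouped by family number as mitochondrial carriers, moved little in size. With Dexa in siCTRL DMSO 10 were higher and 6 lower and with siCop1 in DMSO without Dexa 6 were higher and 8 lower, none of them past a 2-fold change. These are 41.0 and 35.9% of the class, against 26.8 and 29.4% of all genes and 30.3 and 33.4% of genes of at least 1 CPM. KL001 changed none of the 39 in all 4 settings, where only 1.8% of all genes and 2.13% of genes of at least 1 CPM were called the same way in all 4. It left 31 of the 39 uncalled in all of them, as it did 152 of the 201 carriers. With siCop1 Slc25a4 went from 651.5, 615 and 602 CPM to 555, 552 and 542 CPM, a log2 difference of -0.18, with -0.21, -0.22 and -0.18 in the other settings. The citrate carrier Slc25a1 (-0.31, -0.34, -0.22 and -0.23), the glutathione carrier Slc25a39 (-0.33, -0.35, -0.42 and -0.36) and Slc25a46, an outer membrane member (-0.27, -0.35, -0.29 and -0.25), fell as well. Slc25a37, the iron importer mitoferrin 1, rose with siCop1 from 97.2, 99.5 and 98.5 CPM to 114, 112 and 113 CPM (log2 0.20, 0.25, 0.28 and 0.15) and fell with Dexa (-0.35, -0.31, -0.31 and -0.43). Slc25a33, a pyrimidine nucleotide carrier, rose with Dexa by 0.58, 0.54, 0.40 and 0.54.

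Of the 21 carriers of nucleotide sugars and related substrates of the Golgi and endoplasmic reticulum, 5 were called with Dexa in siCTRL DMSO (23.8%, below the 26.8% of all genes). With siCop1 in DMSO without Dexa 7 of the 21 were called, where 29.4% of all genes and 33.4% of genes of at least 1 CPM were called. Slc35e1 rose with Dexa (0.14, 0.19, 0.15 and 0.19) and fell with siCop1 (-0.17, -0.17, -0.16 and -0.16), and Slc35a5 rose with siCop1 (0.24, 0.26, 0.31 and 0.46).

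Slc14a1, the urea transporter UT-B, was under 1 CPM in every siCTRL group and reached the level limit only through the siCop1 groups, so its difference is given as a description, with no test. It was at 0.830, 0.800 and 0.437 CPM in siCTRL DMSO and at 2.72, 3.69 and 3.22 CPM in siCop1 DMSO, and the siCTRL and siCop1 groups did not overlap in any setting. From 53, 25, 33 and 17 counts in the siCTRL groups in DMSO, DMSO with Dexa, KL001 and KL001 with Dexa, the ratios with siCop1 were 4.78 (95% exact interval 3.54 to 6.56, counting error only), 6.34 (4.14 to 10.1), 6.92 (4.79 to 10.3) and 8.85 (5.34 to 15.6). The fatty acid transport protein Slc27a1 rose with siCop1 by 0.40, 0.36, 0.44 and 0.50 and fell with Dexa by -0.17, -0.30, -0.21 and -0.24. Slc22a23, of the organic ion transporter family, fell with siCop1 by -0.59, -0.39, -0.59 and -0.64.

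The taurine transporter Slc6a6 fell with both, from 414, 456 and 447 CPM in siCTRL DMSO to 322, 360.4 and 367 CPM with Dexa (log2 -0.33, then -0.25, -0.38 and -0.39) and by -0.18, -0.24, -0.19 and -0.33 with siCop1. The creatine transporter Slc6a8 rose with siCop1 by 0.22, 0.12, 0.25 and 0.11. The sialic acid exporter of lysosomes, Slc17a5, rose by 0.23, 0.23, 0.32 and 0.22. The 5 symbols of the rule that do not name a transporter (Slc9a3r1, Slc9a3r2, Slc4a1ap, Slc7a6os and Slc2a4rg-ps) were counted as members and kept as a class of their own. Slc9a3r1 and Slc9a3r2, scaffold proteins that bind exchangers, fell with siCop1 in all 4 settings.

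Some calls in all 4 settings did not stand when 1 library was left out. With Dexa these were Slc19a1, Slc1a6, Slc25a30, Slc37a4, Slc3a2 and Slc41a3 among those higher and Slc14a2, Slc25a24, Slc29a3, Slc35f5, Slc38a2 and Slc9a3r2 among those lower. With siCop1 these were Slc12a9, Slc16a3, Slc16a6, Slc25a13, Slc25a36 and Slc6a2 among those higher and Slc12a7, Slc25a15, Slc25a30, Slc26a7, Slc27a3, Slc43a3 and Slc7a2 among those lower. The highest adjusted p on leaving out a library ran from 0.0645 (Slc14a2) to 0.324 (Slc38a2) with Dexa and from 0.07 (Slc43a3) to 0.34 (Slc16a6) with siCop1. With KL001 Slc48a1 rose by 0.13, 0.11, 0.15 and 0.15, with an adjusted p of up to 0.126 on leaving out a library.

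**Figure D5:**
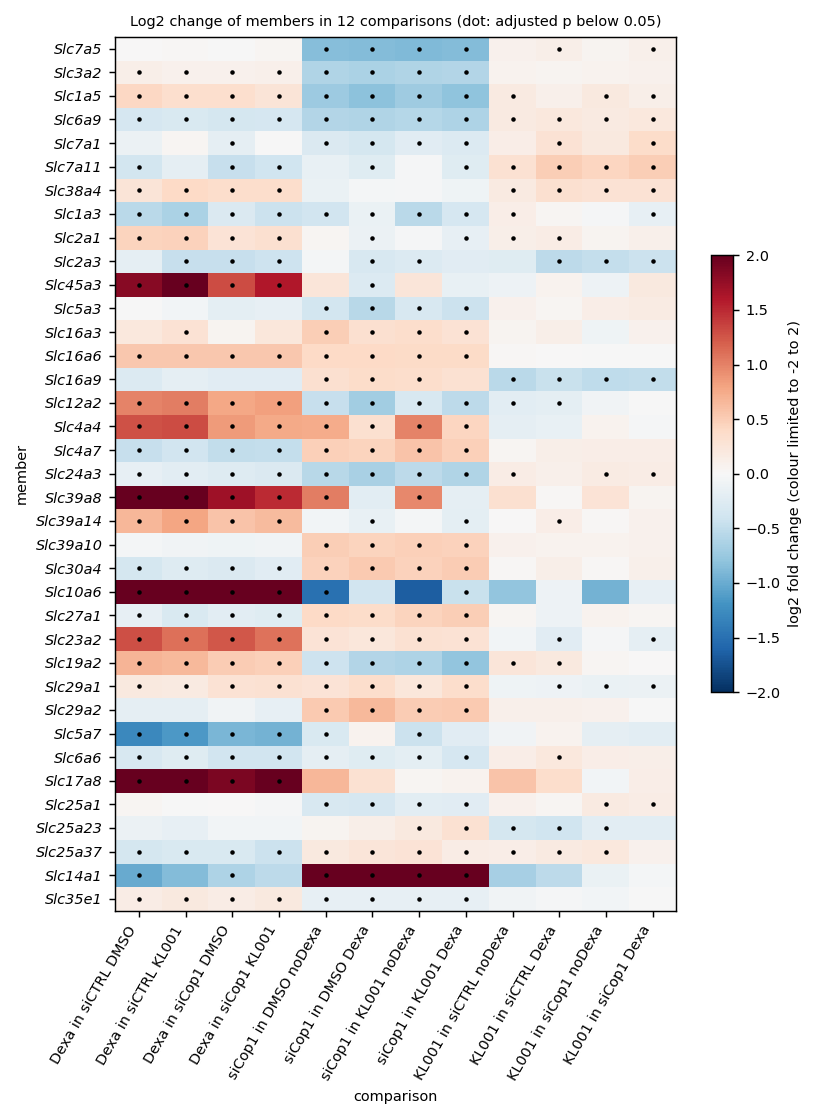
Log2 differences of 37 carriers (rows) in the 12 comparisons (columns), coloured from -2 to 2, with values beyond those limits shown at the limit. A dot marks an adjusted p under 0.05 (edgeR). Dots of Slc10a6, Slc17a8 and Slc39a8 for Dexa and of Slc14a1 for siCop1 are no support, since the level limit favours these differences. The Dexa, siCop1 and KL001 columns form blocks in which most rows keep 1 colour, and the KL001 block is palest.

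Terms for a difference between differences were tested in the same fit. The change with Dexa differed between siCop1 and siCTRL in 1 carrier in DMSO, where 0.67% of all genes passed, and in 1 in KL001, where 0.562% passed. Both were Slc1a3, with a term of 0.26 (SE 0.043, adjusted p = 0.0011, edgeR) in DMSO and 0.21 (adjusted p = 0.0161) in KL001. Slc1a3 fell with Dexa by -0.55 in siCTRL DMSO and by -0.29 in siCop1 DMSO, and by -0.64 and -0.43 in KL001. The term in KL001 was lost without siCTRL KL001 replicate 3 (0.19, adjusted p = 0.0568), siCTRL KL001 with Dexa replicate 2 (0.18, 0.103) or 3 (0.19, 0.0868), siCop1 KL001 replicate 1 (0.20, 0.0505) or 3 (0.20, 0.0653), or siCop1 KL001 with Dexa replicate 1 (0.20, 0.051) or 2 (0.21, 0.0582). For KL001 with Dexa in siCTRL and for siCop1 with KL001 without Dexa, 0 carriers and 0% of all genes passed in edgeR and 0 carriers in DESeq2. At an unadjusted p under 0.05, 11 and 15 carriers did so in edgeR (5.47 and 7.46%, against 6.01 and 6.65% of all genes).

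A list of partners of carriers and transporters with other symbols was tested in the same way. Of its 28 genes, 25 were in the table. With Dexa in siCTRL DMSO 7 were higher and 6 lower, in siCop1 DMSO against siCTRL DMSO 6 and 9, and with KL001 in siCTRL with Dexa 3 and 1. Among all genes tested the shares higher and lower in these comparisons were 12.7 and 14.1%, 12.8 and 16.6%, and 4.98 and 5.58%. Mfsd2a, a carrier of lysophospholipids, rose with Dexa by 1.41, 1.16, 0.78 and 0.91, and Atp1b1, a subunit of the sodium pump, by 0.51, 0.46, 0.35 and 0.42. The water channel Aqp1 fell with siCop1 by -0.74, -0.78, -0.82 and -0.84, and Cd44, a partner of Slc7a11 at the cell surface, rose by 0.47, 0.44, 0.43 and 0.47.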

How the data were processed

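Total RNA from mouse embryonic fibroblasts was sequenced as stranded mRNA libraries, per the labels' protocols. The authors deposited raw counts per gene for 24 libraries, in 8 groups of 3, with a normalized table that was not used here, and 0 sample columns were left unmapped. Per the submitters' processing notes the tools were bcl2fastq 1.8.4, STAR 2.4.5a, featureCounts of Subread 1.4.6-p3, Picard 1.126 and DESeq2, with the mouse builds GRCm38 and mm10. The sources used here do not give the strand setting or the treatment of reads matching several genes, so overlapping or near-identical genes may share reads.

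Here edgeR 4.0.16 was used with TMM scaling, filterByExpr (minimum count 10, total 15), 1 mean per group and a robust quasi-likelihood test on all 24 libraries, with Benjamini-Hochberg adjustment over 14772 genes. Values by library are TMM-scaled CPM, and the limit of 1 CPM used raw CPM. The groups come from the labels, which name no batch. No 2 libraries were identical, and all replicates differed by more than counting noise (chi-square per degree of freedom 1.58 to 9.26). Noise was uneven between groups: the values were 9.26, 4.20 and 7.27 in siCTRL KL001 without Dexa. In the siCop1 DMSO groups without and with Dexa they ran from 1.58 to 2.38. The fit used 1 estimate of the spread for all groups.

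The members, classes, lists and comparisons were chosen with earlier results of these data known. Genes were named by rule: much studied carriers, up to 6 higher and 6 lower called members per comparison with separate groups, up to 3 of each sign per interaction, the member of each class called most often, and those beside the limit. Alternatives were RLE scaling, no filter, a block for the replicate number, DESeq2 1.42.0, a fit limited to the groups compared and each library left out. Results for 2 members are not reported here. Libraries with the same replicate number deviated together, with all 3 correlations above 0.1, only for Dexa in siCTRL KL001 (0.204, 0.391 and 0.299). For KL001 in siCTRL with Dexa they were 0.0638, 0.317 and 0.214, and the lowest of all pairs was -0.442. The labels name no shared culture or day. In the names of the count columns, libraries of an siRNA with the same replicate number share a stem, and nothing says what it stands for. The block used the number across both siRNAs, and no block by stem was fitted.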

Additional observations from a re-analysis of the deposited data

Results flagged for a closer look

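The glutamate transporter Slc1a3 was singled out because its change with Dexa differed between siCop1 and siCTRL in edgeR's test of the difference. The term was 0.26 on the log2 scale in DMSO (adjusted p = 0.0011) and 0.21 in KL001 (adjusted p = 0.0161). Slc1a3 was lower with Dexa in all 12 libraries with Dexa than in the matching groups without it, and the term in KL001 was lost without any 1 of 7 libraries, with an adjusted p of up to 0.103 without siCTRL KL001 with Dexa replicate 2. Without the filter on low counts that term was 0.19 (adjusted p = 0.0701).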

How the results depend on the processing

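The counts of carriers changed kept within 1.5 times of the main count under RLE scaling, no filter, DESeq2 and the replicate block, except for siCop1 by Dexa in DMSO, which gave 2 with RLE scaling and 3 without the filter. Fitted on the groups compared only, KL001 without Dexa gave 1 carrier in siCTRL and 26 in siCop1, KL001 with Dexa gave 32 in siCop1, and siCop1 by Dexa in KL001 gave 0. Leaving out 1 library gave 68 to 79, 67 to 78, 61 to 70 and 61 to 68 carriers for Dexa in siCTRL DMSO, siCTRL KL001, siCop1 DMSO and siCop1 KL001. For siCop1 it gave 72 to 79, 74 to 83, 77 to 82 and 68 to 74 in DMSO without and with Dexa and KL001 without and with Dexa. For KL001 it gave 15 to 22, 20 to 30, 12 to 14 and 10 to 14 in siCTRL, siCTRL with Dexa, siCop1 and siCop1 with Dexa, for siCop1 by Dexa 1 to 2 in DMSO and 0 to 2 in KL001, and 0 for the other terms. Leaving out a library leaves fewer samples; the cause of the other changes was not tested. Of 613 called values of 107 members, 454 stayed called under every alternative and none reversed. In 11 of the 12 comparisons the pairs of libraries with the same replicate number did not all correlate above 0.1 (over all, 12 of 36 pairs correlated above 0.1, from -0.442 to 0.391, and 11 of 24 libraries were closest to their own number). This does not exclude a pairing of some libraries. For Dexa in siCTRL KL001 all 3 pairs correlated above 0.1, and the replicate block gave 78 carriers in place of 77, 76 of them shared, and Slc38a2 lost its call (-0.11, adjusted p = 0.05). With the replicate block, KL001 gave 24 carriers in place of 28 in siCTRL without Dexa, and siCop1 gave 86 in place of 89 in DMSO without Dexa.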
